A study of Mus musculus with 12 samples.

Results

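Prostaglandins are lipid signals made from arachidonic acid, which phospholipases release from membranes. The cyclooxygenases Ptgs1 and Ptgs2 convert arachidonic acid to prostaglandin H2, and terminal synthases then turn that intermediate into prostaglandin D2, E2 or prostacyclin. The products leave the cell, are broken down by a dehydrogenase and act on G protein-coupled receptors, and prostaglandin E2 in particular is well known in mammary tumours. The 10 genes described here cover these steps. They are the phospholipase Pla2g4a, the cyclooxygenases Ptgs1 and Ptgs2, the terminal synthases Ptgds (prostaglandin D2), Ptges (prostaglandin E2) and Ptgis (prostacyclin), the dehydrogenase Hpgd and the prostaglandin E2 receptors Ptger1, Ptger2 and Ptger4. They were found by gene symbol, as 10 of the 55573 genes in the count table, and were chosen by a rule built around the rise of Ptgds with both inhibitors, with earlier results of these data known. The rise of Ptgds in the combination libraries is therefore given as a description with no test.

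The RNA came from tumourspheres, cells grown as spheres in suspension, of 3 spindloid lines, named A1005, A1129 and A1471. Every one was established from a separate mammary tumour of a mouse with the genotype MMTV-Metmt;Trp53fl/+;Cre, in which the MMTV promoter drives an activated Met receptor in the mammary gland and Cre deletes a floxed allele of Trp53, and all groups, DMSO included, share this background. For 24 h the spheres received the vehicle DMSO, Crizotinib (an inhibitor of the Met kinase), PD173074 (an inhibitor of the FGF receptor kinases) or both, each inhibitor at 1 µM, in medium that held EGF, bFGF, insulin, heparin and hydrocortisone. Each of the 4 treatments had 1 library per line (n = 3 lines), so a line is the replicate and no treatment was repeated within a line. The question is where the other steps of the pathway stood while Ptgds rose.

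The 12 libraries held about 13031500 to 17750500 counts each. All levels below are CPM, counts scaled to the library total after TMM scaling, and a count of 0 allows a level of up to 0.234 CPM (3 counts) in the shallowest library, for counting error only. The mesenchymal markers Vim, Fn1, Zeb1 and Twist1 were present in every library, with a summed list level of 2408 to 8440 CPM, whereas Cdh2 had at most 6 counts. Of the epithelial markers, Krt5 (0 counts in all libraries), Krt14 (at most 11), Cdh1 (at most 9) and Epcam (at most 29) were at or near 0, although the labels give breast tumour as the tissue, whereas the simple keratins Krt8 (17 to 611 counts) and Krt18 (53 to 748) were present in each library. Adipocyte markers reached at most 0.0716 CPM in sum and endothelial markers at most 0.752 CPM. The summed leukocyte markers were 31.5 to 42.0 CPM in A1005 and 4.47 to 10.9 CPM in the other lines. In A1005 the pan-leukocyte gene Ptprc had 174 to 339 counts and in the other lines at most 2. Cd68, a lysosomal marker of macrophages, was present in each library and higher in the combination than in the DMSO library of each line (439, 173 and 109 counts in A1005, A1129 and A1471 against 227, 64 and 75 with DMSO), while Adgre1 (at most 1 count), Cd3e (at most 2) and Csf1r (at most 5) were at or near 0. The part of these markers in the results below was not tested. In bulk RNA, fewer cells of a type and less RNA per cell cannot be told apart.

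The promoters of Ptgds and of Ptges and Ptgs1, the pair of members called in the unpaired test below, are shown for their sequence context. RefSeq windows on GRCm38.p6, from 250 bases before to 50 bases after an annotated start, were matched for 8 of the 10 members. Motifs were searched on both strands and did not overlap in these windows. Capitals mark a match to AP-1 (TGANTCA) in Ptgds and to the GC box (GGGCGG) in Ptges, and Ptgs1 held no match to any of the 7 motifs searched. The Ptgds window is chr2:25469700-25469999 (minus strand), the Ptges window is chr2:30903248-30903547 (minus strand) and the Ptgs1 window is chr2:36230176-36230475 (plus strand).
Ptgds: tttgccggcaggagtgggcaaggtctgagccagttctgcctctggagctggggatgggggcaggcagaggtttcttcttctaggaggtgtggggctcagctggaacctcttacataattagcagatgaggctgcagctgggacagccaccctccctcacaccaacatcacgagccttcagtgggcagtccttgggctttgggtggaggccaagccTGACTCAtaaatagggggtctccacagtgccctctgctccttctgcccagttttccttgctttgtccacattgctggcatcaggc
Ptges: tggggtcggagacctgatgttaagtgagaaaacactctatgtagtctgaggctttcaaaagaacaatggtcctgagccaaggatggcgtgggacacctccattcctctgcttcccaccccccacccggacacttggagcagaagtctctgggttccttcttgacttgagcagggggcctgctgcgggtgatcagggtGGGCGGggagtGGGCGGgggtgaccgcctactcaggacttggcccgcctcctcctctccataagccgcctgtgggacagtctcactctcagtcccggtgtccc
Ptgs1: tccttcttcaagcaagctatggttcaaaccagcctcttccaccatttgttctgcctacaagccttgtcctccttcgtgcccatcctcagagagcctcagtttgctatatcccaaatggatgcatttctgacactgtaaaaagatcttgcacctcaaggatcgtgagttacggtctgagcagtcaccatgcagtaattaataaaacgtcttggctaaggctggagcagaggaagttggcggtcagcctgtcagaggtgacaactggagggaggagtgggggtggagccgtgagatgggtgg
The AP-1 match of Ptgds lies at positions -35 to -29 from the RefSeq start, and 7.79% of all 32544 promoter windows hold such a match. The matches of Ptges lie at -53 to -48 and -42 to -37, and 35.9% of windows hold a GC box. The other motifs searched were the cAMP response element (TGACGTCA, in 1.80% of windows), the E-box (CACGTG, 7.17%), the TATA box (TATAAA, 13.6%), the forkhead motif (GTAAACA, 3.66%) and the ETS motif (CCGGAAGT, 3.92%). The windows of Ptgds and Ptges lie within the longer gene spans of GENCODE, so other transcripts start further upstream. A match describes the letters alone, and binding of any factor was not measured.

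With DMSO the prostaglandin E2 synthase and COX-1 were the most abundant members. Per kilobase of exon, Ptges had the highest level of the 10 members, 138 ± 43.9 CPM per kb (SD, n = 3 lines), followed by Ptgs1 at 106 ± 15.6 CPM per kb, and these neighbours in the order did not differ beyond their spread. Ptgs2 followed at 20.1 ± 20.0 and Pla2g4a at 4.602 ± 5.74 CPM per kb, both with a spread as wide as their mean. Ptger2 had 2.03 ± 2.48, Ptgds 0.400 ± 0.622, Ptger1 0.189 ± 0.0753, Ptger4 0.0636 ± 0.0685 and Ptgis 0.0304 ± 0.0527 CPM per kb. Hpgd, the 15-hydroxyprostaglandin dehydrogenase that inactivates prostaglandins, had 0 counts in all 12 libraries. The 5 genes from Ptger2 downward overlapped with their neighbours in that order.

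With the combination the order of mean levels was another one. Ptgs1 led at 40.2 ± 5.78 CPM per kb, then Ptgds at 37.7 ± 50.8 and Ptges at 28.7 ± 22.8 CPM per kb (n = 3 lines), and these 3 did not differ beyond their spread. The place of Ptgds in this order rests on A1129, in which it had 96.3 CPM per kb, above all other members. It had 7.82 CPM per kb in A1005, below Ptges, Ptgs1, Ptgs2 and Pla2g4a, and 8.97 in A1471, below Ptgs1 (33.6) and Ptges (22.5). The map of levels by library shows these values.

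**Figure D1:**
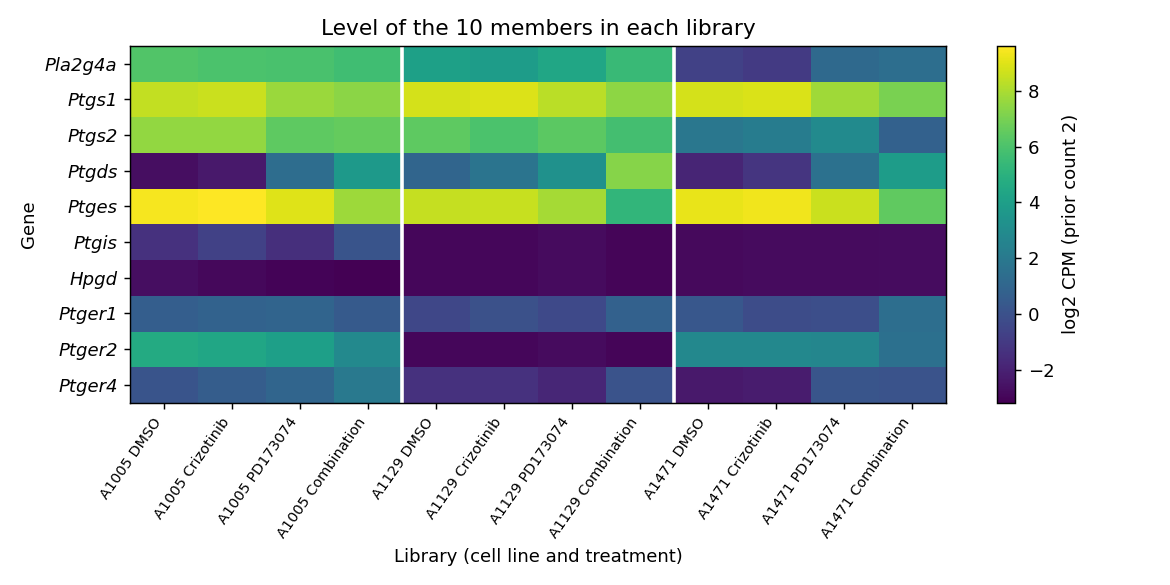
Level of the 10 members (rows) in each of the 12 libraries (columns, ordered by cell line and then treatment), coloured by log2 CPM with a prior count of 2. Ptgds is brightest in the combination library of each line, Ptges and Ptgs1 are high in all DMSO libraries, and Ptger2 is at 0 counts in the 4 libraries of A1129.

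Ptgds, the lipocalin-type synthase of prostaglandin D2 (ENSMUSG00000015090, chr2:25466709-25470046, minus strand, mm10), was close to undetected with DMSO. It had 0 counts in A1005, 28 in A1129 and 2 in A1471, against 232, 2535 and 196 counts with the combination, which is 12.9, 159 and 14.8 CPM. The combination libraries all lay above all DMSO libraries, and A1129 was the highest line in each treatment. In A1005 the combination was 55.1-fold higher with the 0 DMSO counts set to a floor of 3, and the exact 95% lower limit was 44.4. It was 86.3-fold higher in A1129 (95% counting interval 59.5 to 130) and 107-fold higher in A1471 (29.2 to 890). The fitted log2 fold change was 6.52 in the unpaired fit and 6.41 when cell line was a block. These values chose the gene and are not tested.

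Ptgds had 10 or more counts in 3 of 3 combination and 3 of 3 PD173074 libraries, but in 1 of 3 Crizotinib and 1 of 3 DMSO libraries. Its passing of the filter on low counts therefore did not rest on the combination libraries alone. Of the markers of glia, a known source of Ptgds, Sox10 had at most 2 counts in any library and Gfap at most 6.

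With PD173074 alone Ptgds stood between DMSO and the combination in all 3 lines. It had 41, 134 and 40 counts in A1005, A1129 and A1471 (2.48, 9.59 and 2.85 CPM), and these libraries all lay above all DMSO libraries, which are also the controls of the combination. The ratio to the DMSO library of A1005 was 10.6-fold with its 0 counts set to the floor of 3 (exact 95% lower limit 8.22). In the other lines it was 5.21-fold in A1129 (3.45 to 8.13) and 20.6-fold in A1471 (5.35 to 176). The fitted log2 fold change was 2.87 in the unpaired and 3.39 in the block fit. Because the low DMSO levels took part in choosing the gene, this contrast is a description as well.

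Crizotinib alone left Ptgds low. The counts were 1, 49 and 4 in A1005, A1129 and A1471, and the log2 fold change against DMSO was 0.84, also given with no test. The difference between the inhibitors, PD173074 against Crizotinib, was 2.04 on the log2 scale without the block and 2.57 with it. PD173074 was the higher of the pair in 3 of 3 lines. Because the gene was chosen with the results of all treatments known, this difference is a description too. The other members below were tested by the quasi-likelihood test of edgeR, with Benjamini-Hochberg adjustment over 13836 genes.

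**Figure D2:**
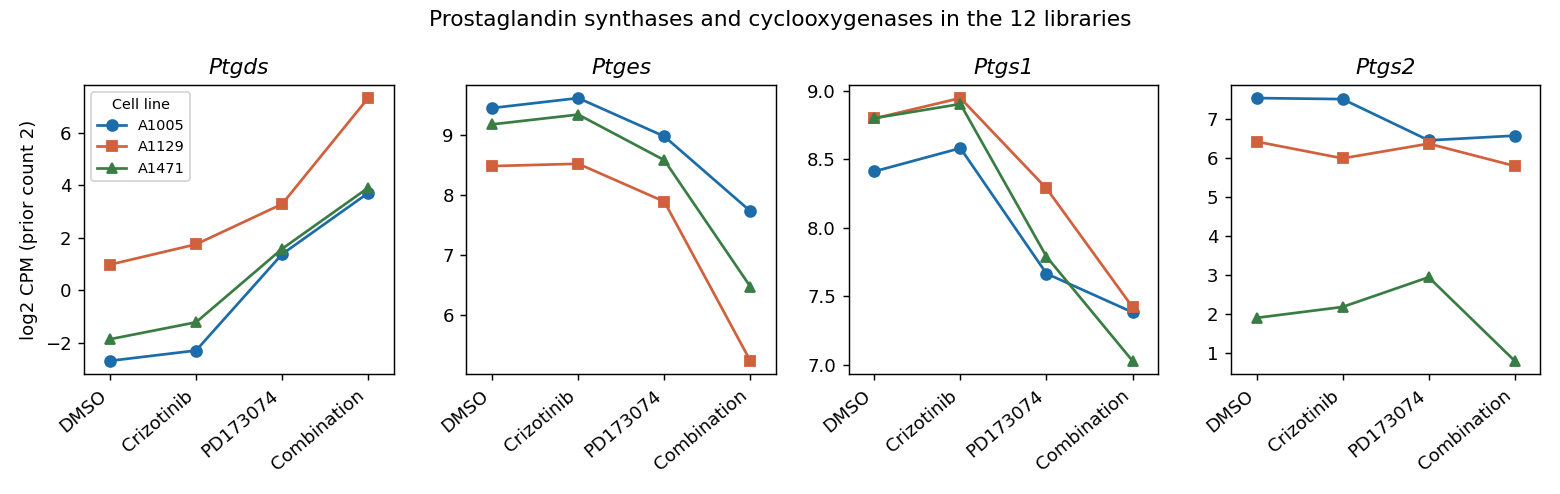
Level of Ptgds, Ptges, Ptgs1 and Ptgs2 (log2 CPM, prior count 2, with a separate vertical scale in each panel) by treatment, with 1 point per library and 1 line per cell line. Ptgds is higher with PD173074 and highest with the combination in each line, while Ptges and Ptgs1 are lowest with the combination in each line.

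Ptges, the inducible synthase of prostaglandin E2 (ENSMUSG00000050737, chr2:30889471-30929863, minus strand), fell with the combination. Its level with DMSO was 696 CPM in A1005, 356 in A1129 and 577 in A1471, and with the combination 212, 37.5 and 88.6 CPM. The groups did not overlap, and A1129, the line highest in Ptgds, was the lowest in Ptges under both treatments. The mean went from 543 ± 173 to 113 ± 89.6 CPM (SD, n = 3 lines), and the ratio within lines was 0.304, 0.105 and 0.154. The log2 fold change was -2.27 ± 0.588 (SE), with an edgeR adjusted p of 0.0309. With the line as a block it was -2.49 ± 0.257, adjusted p = 4.21e-05. The unpaired call was lost without A1129 (edgeR adjusted p = 0.0784) and without A1471 (0.323) and when only the libraries of the 2 groups were fitted (0.0984), and the block call was kept without any 1 line (7.73e-05 to 0.00503).

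The fall of Ptges was larger with the combination than with PD173074 alone once lines were matched. PD173074 libraries had 502, 236 and 382 CPM in A1005, A1129 and A1471, each between the DMSO and the combination library of its line. PD173074 against DMSO differed by -0.54 on the log2 scale (edgeR adjusted p = 1.0, and 0.297 in the block fit), so a change with PD173074 alone was not called. The combination against PD173074 gave -1.73 ± 0.578, edgeR adjusted p = 0.131, and -1.93 ± 0.253 with the block, 0.000391, lower in 3 of 3 lines. With Crizotinib Ptges had 781, 366 and 646 CPM (log2 fold change 0.14, 95% interval -1.11 to 1.39), and the combination against Crizotinib gave -2.41 ± 0.591, edgeR adjusted p = 0.0253, which was lost without A1129 (0.0637), without A1471 (0.315) and with only the groups compared (0.0919).

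The balance of the D2 and E2 synthases can be read within each library, per kilobase of exon. Ptgds made up 0%, 1.22% and 0.0571% of the summed Ptgds and Ptges level with DMSO in A1005, A1129 and A1471. It made up 1.16%, 8.82% and 1.75% with PD173074 and 12.7%, 91.0% and 28.5% with the combination. A1129 was the 1 line in which Ptgds exceeded Ptges, and Ptges remained the higher of the pair in A1005 (6.89 times) and A1471 (2.51 times). The share rests in part on the rise of Ptgds that chose the genes and is a description. RNA levels give no amounts of prostaglandins, which were not measured.

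Ptgis, the prostacyclin synthase (ENSMUSG00000017969), was seen in A1005 alone, with 3 counts with DMSO, 7 with Crizotinib, 4 with PD173074 and 18 with the combination. It shares 156 exon bases with 1110018N20Rik on the opposite strand. The ratio of the combination to DMSO there was 4.27 (95% counting interval 1.25 to 22.6), and the other lines had 0 counts under each treatment. Neither Ptgis nor Hpgd passed the filter on low counts, so 8 of the 10 members were tested and 7 of the 9 other than Ptgds.

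Ptgs1, the constitutive cyclooxygenase COX-1 (ENSMUSG00000047250, chr2:36230426-36252272, plus strand), fell with the combination in each line. It had 341, 446 and 446 CPM with DMSO in A1005, A1129 and A1471 and 167, 171 and 130 CPM with the combination. The groups did not overlap. The mean was 411 ± 60.8 CPM with DMSO (SD, n = 3 lines) and 156 ± 22.4 CPM with the combination. This is -1.40 ± 0.210 on the log2 scale with an edgeR adjusted p of 0.00271, or -1.39 with the line as a block (4.91e-05). The unpaired call was lost without A1471 (edgeR adjusted p = 0.104), and the block call was kept without any 1 line (0.000296 to 0.00249). Gm43621, an annotated transcript on the opposite strand, shares 148 exon bases with Ptgs1.

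With PD173074 alone Ptgs1 stood between DMSO and the combination in 3 of 3 lines. Its level was 203, 313 and 221 CPM in A1005, A1129 and A1471, below the DMSO library of the line in 3 of 3 lines and also below all DMSO libraries. The change was -0.74 ± 0.207 on the log2 scale, with an edgeR adjusted p of 1.0 in the unpaired and 0.0273 in the block fit. Without any 1 of the lines the block call was lost (0.0861 to 0.261). Crizotinib gave 383, 494 and 479 CPM and a log2 fold change of 0.14 (95% interval -0.32 to 0.60). PD173074 against Crizotinib was -0.88 ± 0.207 (edgeR adjusted p = 0.666; 0.00844 with the block, and 0.0974 with the block and without A1471). The combination against PD173074 was -0.65 ± 0.207 (0.112; 0.00734 with the block, and 0.0946 without A1129) and against Crizotinib -1.53 ± 0.210 (0.00171, and 0.0901 without A1471).

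Ptgs2, the inducible cyclooxygenase COX-2 (ENSMUSG00000032487, chr1:150100031-150108227, plus strand), differed more between lines than between treatments. It had 186, 85.8 and 3.59 CPM with DMSO in A1005, A1129 and A1471 and 95.4, 55.6 and 1.58 CPM with the combination. The combination library was below the DMSO library in 3 of 3 lines, and the groups overlapped because the lines differ. The fitted change was -0.85 on the log2 scale (95% interval -4.38 to 2.68) with an edgeR adjusted p of 0.788, and -0.82 (-1.58 to -0.05) with the block, 0.0668, so a fall was not called. DESeq2 with the block gave an adjusted p of 0.0387. Per kilobase Ptgs1 exceeded Ptgs2 with DMSO 2.16 times in A1005, 6.13 times in A1129 and 146 times in A1471, and 2.06, 3.63 and 97.0 times with the combination.

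Pla2g4a, the cytosolic phospholipase A2 that releases arachidonic acid (ENSMUSG00000056220, chr1:149829618-149961290, minus strand), is the neighbour of Ptgs2, and the 138741 bp between them hold 3 annotated genes, 0 of them protein-coding. Its levels with DMSO were 70.7, 17.1 and 0.483 CPM in A1005, A1129 and A1471, and with the combination 51.5, 45.6 and 2.57 CPM. The lines moved in different directions, down in A1005 (ratio 0.729, 95% counting interval 0.664 to 0.799) and up in A1129 (2.67, 2.31 to 3.09) and A1471 (5.31, 2.32 to 14.2). Its log2 fold change was 0.18 (95% interval -3.74 to 4.10) with an edgeR adjusted p of 0.968, and 0.80 (-0.19 to 1.78) with the block, 0.153. It was -0.40 without A1129, and in the block fit without A1005 it was 1.60 with an edgeR adjusted p of 0.0108.

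Among the receptors of prostaglandin E2, Ptger2 (EP2, which raises cAMP) was lower with the combination where it was present. It had 319 and 98 counts with DMSO in A1005 and A1471 and 126 and 37 counts with the combination, whereas A1129 had 0 counts in its 4 libraries. The ratio was 0.281 in A1005 (95% counting interval 0.227 to 0.347) and 0.412 in A1471 (0.275 to 0.608). Its change was -1.69 ± 2.36 on the log2 scale with an edgeR adjusted p of 0.705, and -1.58 ± 0.230 with the block, 0.000974, a call that rests on 2 lines and was lost without A1005 (0.0839). The block fit also called the combination below PD173074 (-1.21, adjusted p = 0.0061) and below Crizotinib (-1.44, 0.0016). Ptger2 shares 246 exon bases with the antisense gene Gm17173 and 144 with Gm49364, and whether the counting used strand is not given in the sources used here.

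Ptger4 (EP4, which also raises cAMP) had higher counts with the combination, from a low start. It had 12, 4 and 1 counts with DMSO in A1005, A1129 and A1471 and 71, 15 and 12 with the combination, higher in 3 of 3 lines. The within-line ratios were 4.21 (2.27 to 8.54), 3.57 (1.14 to 14.8) and 13.1 (1.94 to 560). On the log2 scale the change was 2.19 ± 1.25 with an edgeR adjusted p of 0.288, and 2.21 ± 0.579 with the block, 0.00854, lost without A1005 (0.0702). The combination against Crizotinib was called with the block (1.85, adjusted p = 0.0163) and the combination against PD173074 was not (0.90, 0.183). As with Ptgds, 1 of 3 DMSO libraries and 3 of 3 combination libraries had 10 or more counts, and Ptger4 shares 1015 exon bases with the pseudogene Gm15937 and 82 with Ttc33 on the opposite strand.

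Ptger1 (EP1, which signals through calcium) was near its lower limit of measurement, with 18, 9 and 16 counts with DMSO in A1005, A1129 and A1471 and 23, 26 and 34 with the combination. Its log2 fold change was 0.81 (95% interval -0.42 to 2.05), edgeR adjusted p = 0.378, and 0.87 with the block (0.108). In the block fit without A1005 it was 1.31 with an adjusted p of 0.0292.

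**Figure D3:**
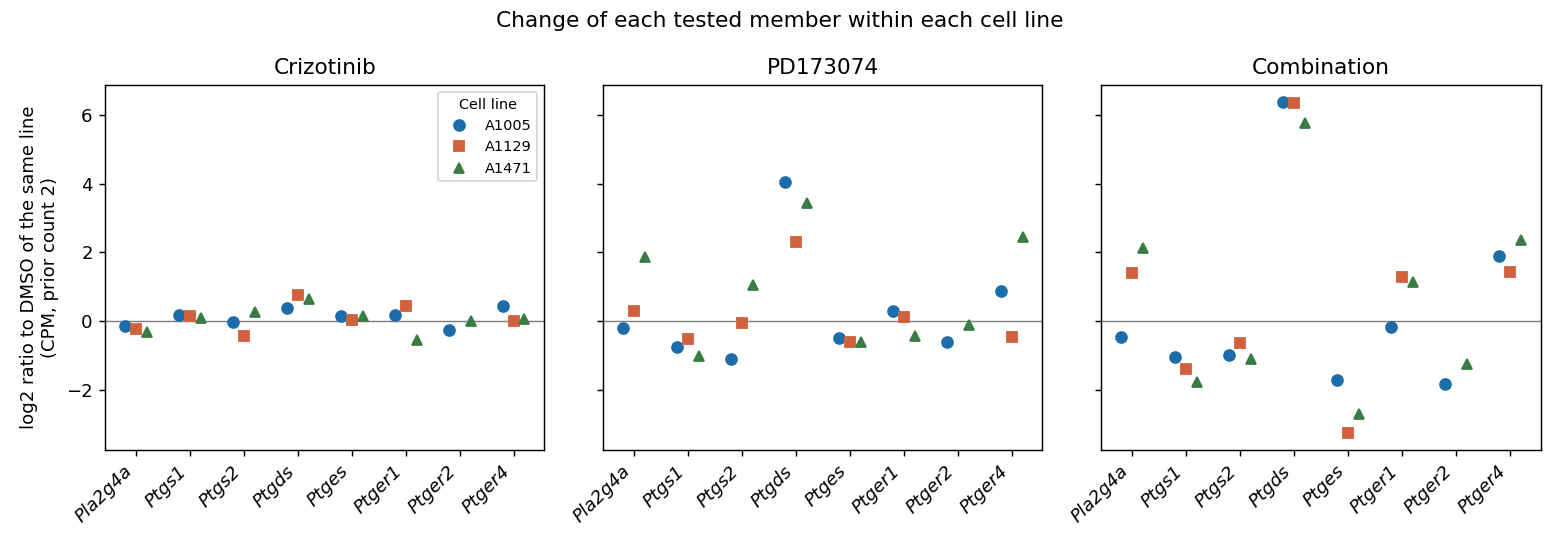
Log2 ratio of each treatment to the DMSO library of the same cell line (CPM, prior count 2) for the 8 tested members, with 1 point per line. With Crizotinib all points lie within 1 log2 unit of 0. With PD173074 Ptgds is above and Ptges and Ptgs1 are below 0 in all lines. With the combination Ptgds and Ptger4 are above and Ptges, Ptgs1 and Ptgs2 below 0 in all lines. Pla2g4a and Ptger1 are there below 0 in A1005 and above 0 in the others. Ptger2 has no point for A1129 (0 counts).

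Counted over the members other than Ptgds, the combination against DMSO called 2 of the 7 tested genes, Ptgs1 and Ptges, both lower, against 14.4% of all 13836 genes tested (6.1% higher and 8.28% lower). With the line as a block it called 4, with Ptger2 lower and Ptger4 higher in addition, against 54.8% of all genes, so the members' share was near the background there. The median log2 fold change of the 7 was -0.85, beside 0.02 over all genes tested. The combination against Crizotinib called the same pair, Ptgs1 and Ptges (13.2% of all genes), and 4 with the block (53.4%). The combination against PD173074 called 0 of 7 in edgeR (4.77% of all genes), 2 at an unadjusted p under 0.05, 0 in limma-voom and 2 in DESeq2, and 3 with the block (39.8%). The shares of all genes called by DESeq2 and limma-voom in that comparison are not given here.

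The single inhibitors gave few calls anywhere. PD173074 against DMSO called 0 of 7 members in edgeR (0.0% of all genes), 1 at an unadjusted p under 0.05 and 0 in DESeq2 and limma-voom, and 1 with the block, Ptgs1 (2.14% of all genes). Crizotinib against DMSO called 0 of 7 with each of these tools, with and without the block in edgeR (0.0% of all genes for both), and 0 at an unadjusted p under 0.05. PD173074 against Crizotinib called 0 in edgeR (0.0%), 1 at an unadjusted p under 0.05, 0 in limma-voom and 1 in DESeq2, and 1 with the block (4.22%). For DESeq2 and limma-voom the share over all genes is not given there.

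Whether both inhibitors together moved a gene by more than the sum of their single effects was tested as the departure from additivity on the log2 scale. The departure was -1.87 ± 0.801 for Ptges (edgeR adjusted p = 0.522) and -0.79 ± 0.291 for Ptgs1 (0.401). With the line as a block it was -2.05 ± 0.346 for Ptges (0.00457) and -0.77 ± 0.204 for Ptgs1 (0.0318), so both were called lower than additive in that fit. The Ptges call was lost without A1471 (0.0960), and the Ptgs1 call without A1129 (0.202) or A1471 (0.114). For Ptgds the departure was 2.81 (2.21 with the block), a description. Without the block 0 of 7 members were called in edgeR (0.918% of all genes), 2 at an unadjusted p under 0.05 and 0 in DESeq2 and limma-voom, and the block called 2 (16.2%).

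The cell lines differed in most members. A test of the 3 lines with treatment in the model called 5 of the 7 members, against 73.9% of all genes, so the members' share was near the background. The smallest edgeR adjusted p was that of Ptger2 (7.46e-07), which A1129 lacked, followed by Ptgs2 (2.43e-06) and Pla2g4a (6.99e-06), both highest in A1005 and lowest in A1471. Ptges (0.000609) and Ptger4 (0.00167) were highest in A1005 in all treatments. Ptgs1 (0.0644) and Ptger1 (0.183) were not called. The 4 libraries of a line differ in treatment and are not replicate cultures. Ptprc was also high in A1005 alone, and its part in the levels of that line was not tested.

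Outside the 10 members, 46 further genes of the prostanoid and leukotriene pathways were listed, and 21 of them were tested. In the combination against DMSO 4 were called, 1 higher and 3 lower. The share of all genes called was 14.4% in that fit. Over the 21 the median change on the log2 scale was -0.07. With the block 14 were called, 7 in each direction, beside 54.8% of all genes, so neither count shows anything particular to the pathway. None of the 4 unpaired calls was kept when only the libraries of the 2 groups were fitted.

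Slco2a1, the transporter that carries prostaglandins into cells, fell from 408, 346 and 365 CPM with DMSO in A1005, A1129 and A1471 to 147, 31.6 and 27.5 CPM with the combination. The DMSO libraries were close together and the combination libraries were all lower, least so in A1005. The log2 fold change was -2.44 ± 0.576 with an edgeR adjusted p of 0.0209, and PD173074 alone gave 299, 204 and 156 CPM (log2 fold change -0.76, edgeR adjusted p = 1.0, and 0.332 with the block).

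Anxa1, annexin A1, a known inhibitor of phospholipase A2 activity, rose from 522, 717 and 538 CPM to 1009, 1083 and 1344 CPM, without overlap (log2 fold change 0.95 ± 0.218, edgeR adjusted p = 0.0191). Ptges3, the co-chaperone p23 that also has prostaglandin E synthase activity, fell from 209, 256 and 227 CPM to 130, 105 and 77.2 CPM (-1.15 ± 0.185, edgeR adjusted p = 0.00369), and its reads may be shared with a pseudogene copy. Pla2g4c, a further cytosolic phospholipase, went from 7, 25 and 8 counts to 2, 3 and 2 (-2.55 ± 0.645, edgeR adjusted p = 0.0279), and in A1129 the ratio was 0.114 (95% counting interval 0.0221 to 0.375).

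The receptors of prostaglandin D2 were looked up after the values were seen. Ptgdr (DP1) had 0 counts in all 12 libraries. Ptgdr2 (DP2) had 0, 1 and 0 counts with DMSO in A1005, A1129 and A1471 and 1, 17 and 7 with the combination, and did not pass the filter on low counts. Hpgds, the other synthase of prostaglandin D2, had 1 count in 1 DMSO library and 0 elsewhere. Ptgfr, the prostaglandin F receptor, likewise chosen after its values were seen, went from 136, 3 and 2 counts to 1638, 20 and 2 (log2 fold change 3.08, edgeR adjusted p = 0.498; 2.82 and 7.04e-05 with the block). In A1471 both libraries had 2 counts.

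**Figure D4:**
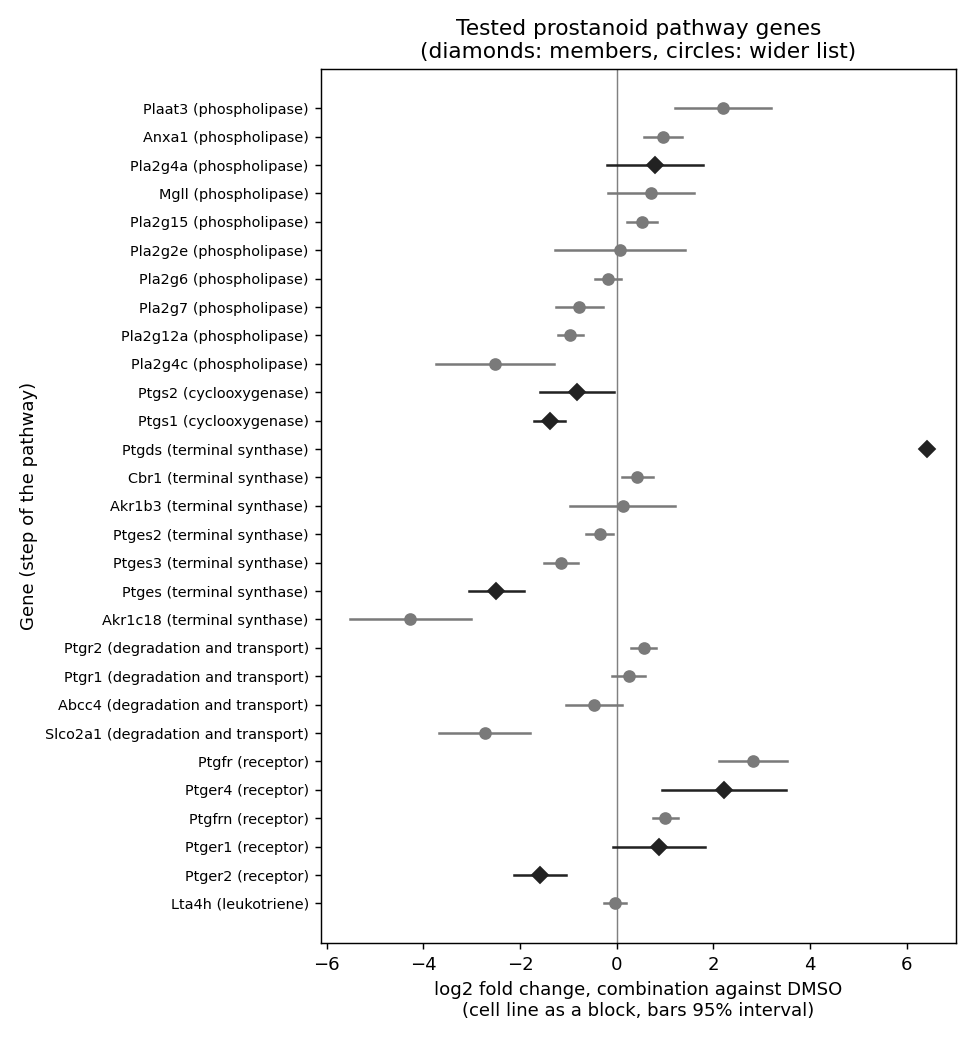
Log2 fold change of the combination against DMSO in the fit with the cell line as a block, for the tested members (diamonds) and the tested genes of the wider list (circles), grouped by step of the pathway. Bars are 95% intervals, and Ptgds has none because its rise chose the genes. Cyclooxygenases and Ptges lie below 0, and phospholipases and receptors lie on both sides.

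The 5 genes whose pattern was most like that of Ptgds were sought by Pearson's r of log2 CPM over the 12 libraries after the mean of each line was subtracted, among 9613 genes. They were Il6st (0.995), the shared receptor subunit of interleukin 6 cytokines, Ids (0.993), a lysosomal sulfatase, Cdon (0.991), a cell surface receptor of the immunoglobulin family, Ncam1 (0.990), a neural cell adhesion molecule, and Pltp (0.986), the phospholipid transfer protein. The points share the same 4 treatments, and the values carry no test. The mean level of Il6st went from 264 CPM with DMSO to 562 CPM with the combination, that of Cdon from 11.0 to 64.0 and that of Ncam1 from 39.1 to 145 CPM. Without centring by line, r was 0.596 for Il6st, 0.273 for Ncam1 and 0.634 for Pltp.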

How the data were processed

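Tumoursphere RNA of 3 cell lines under 4 treatments was sequenced on a NextSeq500 instrument. The authors deposited unnormalised counts, the reads assigned to each of 55573 Ensembl genes, and the submitters' processing notes name bcl2fastq, STAR, HTSeq and the build mm10. Versions, the annotation release and the use of strand are not given in the sources used here, so reads of overlapping genes cannot be told apart. Genes were filtered with filterByExpr (minimum count 10, total 15), scaled by TMM and compared by edgeR 4.0.16 (quasi-likelihood, R 4.3.3) in 1 fit of all 12 libraries, unpaired like the analysis in the study's methods, with Benjamini-Hochberg adjustment over 13836 genes and a threshold of 0.05. Log2 CPM used a prior count of 2. Within-line ratios carry 95% exact binomial intervals for counting error only. Because the replicates are cell lines, which occur in each treatment, the fit with the line as a replicate block is given where it changes a call. Deviations from the treatment means correlated over genes with a mean of 0.871 (0.764 to 0.962) between libraries of the same line and -0.421 between lines. The negative value between lines is built in, because each mean that was subtracted comes from the 3 lines themselves. The tests were tested on simulated data, where, with differences between lines, the unpaired fit missed changes that the block fit recovered. An unpaired adjusted p near 1 therefore does not show that a gene did not change. The simulated treatment effect was the same in every line, as the block fit assumes. There the block fit also made more false calls than the unpaired fit. Some marker and overlap results are not reported here.

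Positions, exon lengths and overlaps are from GENCODE on GRCm38, which holds 55394 of the 55573 genes, and promoters from RefSeq. Alternatives were the block, DESeq2 1.42.0, limma-voom 3.58.1, DESeq2 size factors, total counts alone, no filter, only the groups compared, genes with 10 or more counts throughout, a prior count of 0.5, no centring by line and leaving out each line. The block without each line and DESeq2 with the block were added after seeing the data. The members and lists were chosen with earlier results of these data known. The text names all 10 members, genes of the wider list with an adjusted p under 0.05 in the combination against DMSO, and the 5 genes most like Ptgds whose mean log2 CPM reached 3. Ptgfr, Ptgdr, Ptgdr2 and Hpgds fall outside this rule and were named after their values were seen.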

Additional observations from a re-analysis of the deposited data

Results flagged for a closer look

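Both inhibitors together moved 2 members beyond the sum of their single effects by a test of that difference, in the edgeR fit with the cell line as a replicate block. The departure on the log2 scale was -2.05 for Ptges (adjusted p = 0.00457) and -0.77 for Ptgs1 (0.0318), and neither was called in the unpaired fit. The same block fit called 16.2% of all genes. The Ptges call was lost without A1471 (0.0960), and the Ptgs1 call without A1129 (0.202) or A1471 (0.114).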

How the results depend on the processing

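The pairing of libraries by cell line was the choice that moved most calls. With the replicate block, members called other than Ptgds went from 2 to 4 in the combination against DMSO and against Crizotinib, from 0 to 3 in the combination against PD173074, from 0 to 1 in PD173074 against DMSO and against Crizotinib and from 0 to 2 in the departure from additivity, and the wider list from 1 to 7 higher and from 3 to 7 lower. DESeq2 with the replicate block gave 5, 4, 4, 1, 1 and 2 members in that order, and 7 and 7 wider genes. DESeq2 without it called 2 members in the combination against PD173074, 1 in PD173074 against Crizotinib and 2 wider genes higher. With only the groups compared, 1 member (Ptgs1, without Ptges) was called in the combination against DMSO and against Crizotinib, and 0 wider genes in either direction. No filter gave 0 wider genes higher. With 10 counts in every library only Ptges, Ptgs1 and Ptgs2 of the members stayed in the test, and 2 members were called between lines. Leaving out 1 line, with or without the block, gave 0 to 4 members in the combination against DMSO, against Crizotinib and against PD173074, 0 to 1 in PD173074 against Crizotinib, 0 to 2 in the departure, 0 to 7 wider genes higher and 0 to 6 lower. Pla2g4a in the combination against DMSO turned to -0.40 on the log2 scale without A1129, and with the block and without A1005 it was 1.60. Over all genes, 1990 were called in the combination against DMSO, 7578 with the replicate block, 7357 with DESeq2 and the block, 3032 with DESeq2, 1160 with no filter, 594 with only the groups compared, 324 without A1129 and 120 without A1471. These totals are for the combination against DMSO alone. Except for the unpaired and the block fit of edgeR, counts of members in the other comparisons have no share over all genes beside them. They are not read as results about the members. The cause of the changes between settings was not tested. DESeq2 size factors and total counts alone changed no call of the members. At under 40 counts per library, Ptger1 and, with DMSO, Ptgds and Ptger4 are limited by depth.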
